A study of Mus musculus with 18 samples.

Results

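The transcripts of the mitochondrial genome were measured in 18 lung metastases of a mouse mammary carcinoma. They were taken as every gene whose symbol begins with mt-, which gave 37 of the 49585 genes in the count table. Of these, 2 encode the ribosomal RNAs (rRNAs) of the mitochondrial ribosome, 13 encode proteins (mRNAs) and 22 encode transfer RNAs (tRNAs). All 37 lie on chromosome M of GRCm38 (mm10) in GENCODE M21, 28 on the plus strand and 9 on the minus strand.

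AT3 cells, a mouse mammary carcinoma line carrying GFP and mCherry, were placed in the mammary fat pad and spread to the lungs unaided. Fluorescent lesions were cut from frozen lung sections by laser, and libraries were made from 2 ng of total RNA each with a kit meant for single cells. The question was how lesions compare in hosts with and without natural killer (NK) cells. The hosts carried Rag2-/-IL2rg-/- by the strain label, whereas the text on growth has Rag1 instead of Rag2; either way every host, controls included, lacked lymphocytes of its own. The NK_transferred group received 60000 activated mouse NK cells by vein on day 11 and comprised 7 lesions from 2 mice (NK1 with 3 lesions and NK2 with 4). The Ctrl group received PBS on that day and comprised 11 lesions from 3 mice (KO1 with 5, KO2 with 4 and KO3 with 2). A lesion is named by its mouse and number, so that KO1-5 is lesion 5 of mouse KO1. The labels used here give no age, and a lesion held host cells beside the tumour line.

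The mitochondrial genome is a small circle that is copied into RNA from both strands as long precursors. In most places a tRNA stands between an rRNA or mRNA and its neighbour, and the precursors are cut at the tRNAs to release them. The proteins it encodes are subunits of respiratory complexes I, III and IV and of the ATP synthase (complex V). All other subunits, the mitochondrial RNA polymerase and the proteins of the mitochondrial ribosome come from nuclear genes.

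A few sequences bear on how counts of neighbouring or copied genes can be told apart. They were read from GENCODE M21 transcripts. The last 43 bases of mt-Atp8 are the first 43 bases of mt-Atp6 (chrM:7927-7969, plus strand), and capitals mark the first codon of mt-Atp6 and the stop codon of mt-Atp8. The last 7 bases of mt-Nd4l, in capitals, are the first of mt-Nd4 (chrM:10146-10194, plus strand, with flanks). The ends of mt-Nd5 and mt-Nd6, which are read from opposite strands, overlap by 14 bases (chrM:13532-13565, shown on the plus strand with the overlap in capitals). The start of mt-Nd3 (chrM:9459-9503, plus strand) is set beside that of its nuclear copy Gm28438 (chr1:24613075-24613119, minus strand), with the differing base in capitals.
mt-Atp8 and mt-Atp6: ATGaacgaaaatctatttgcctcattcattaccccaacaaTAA
mt-Nd4l and mt-Nd4: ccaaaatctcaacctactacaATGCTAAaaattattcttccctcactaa
mt-Nd5 and mt-Nd6: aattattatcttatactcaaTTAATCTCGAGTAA
mt-Nd3: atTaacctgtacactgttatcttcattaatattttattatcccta
Gm28438: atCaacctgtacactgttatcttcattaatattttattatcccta
The only difference between mt-Nd3 and the 345 bases of Gm28438 is T3C (the base of mt-Nd3 first, counted from 1 at its start).

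The 2 most counted tRNAs and the tRNA between the rRNAs are shown because their levels differ by far although each abuts an abundant transcript. mt-Ts1 (chrM:6870-6938, minus strand) overlaps the end of mt-Co1, on the opposite strand, by 3 bases, in capitals. mt-Tl1 (chrM:2676-2750, plus strand) directly follows mt-Rnr2, and mt-Tv (chrM:1025-1093, plus strand) fills the gap between mt-Rnr1 and mt-Rnr2.
mt-Ts1: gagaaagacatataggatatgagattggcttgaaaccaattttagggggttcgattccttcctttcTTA
mt-Tl1: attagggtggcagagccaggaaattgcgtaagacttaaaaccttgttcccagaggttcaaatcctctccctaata
mt-Tv: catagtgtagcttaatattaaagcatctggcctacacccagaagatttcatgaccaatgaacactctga

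Total counts ran from 2964242 in NK1-3 to 11798897 in NK2-4. Once the mitochondrial genome was set aside, 1411608 (NK1-3) to 9758529 counts (NK2-4) were left per lesion for all other genes. Summed markers of mammary and epithelial tumour cells were found in every lesion, at 1110 to 4760 CPM (counts scaled to a total of 1000000, for marker and gene lists the total outside the mitochondrial genome). That list holds keratins, Vim and other genes that host cells may also express, so its sum does not measure tumour content. Markers of alveolar epithelium stood at 507 to 6330 CPM and those of macrophages at 488 to 7480 CPM, so mitochondrial counts cannot be assigned to one cell type. Among the counts outside the mitochondrial genome, Lars2, AY036118 and CT010467.1, chosen after their values were seen, together took 42.9% in NK1-3, 29.7% in KO1-5, 26.4% in NK1-2 and 20.8% in KO1-2, against 1.88% to 14.5% in the other lesions. The list levels of those 4 lesions are lower for it. With these features left out of the total, an alternative added after seeing the data, tumour markers stood at 1640 to 4980 CPM, alveolar markers at 542 to 7990 and macrophage markers at 854 to 7710. As these are bulk samples, fewer mitochondria-rich cells and less mitochondrial RNA per cell cannot be told apart.

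The mitochondrial genome gave a very uneven share of the counts from lesion to lesion. It took 12.7% of all counts in KO2-2 and 71.9% in KO1-5, with a median of 27.7% over the 18 lesions. Counting error was small against this range, since the widest 95% Wilson interval of a lesion's share spanned 0.114 percentage points; intervals and limits given here cover counting error only. In NK_transferred lesions the share had a lowest value of 15.3%, a median of 24.2% and a highest value of 65.8%. In Ctrl lesions these were 12.7%, 30.2% and 71.9%. The range of the Ctrl lesions enclosed that of the NK_transferred lesions.

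Nearly all of these counts came from the rRNAs. The 2 rRNAs took 12.1% to 68.9% of counts, the 13 mRNAs 0.213% to 3.01%, and the 22 tRNAs together 2 to 173 counts per lesion. The rRNAs were highest in KO1-5 (68.9%), NK1-2 (65.4%), KO1-2 (58.4%), NK1-3 (52.2%) and NK1-1 (47.7%). Each of the 3 NK1 lesions was above each of the 4 NK2 lesions (13.7%, 15.5%, 22.9% and 16.3%), although both mice had received NK cells. KO2 lesions were low, at 13.02%, 12.1%, 20.1% and 24.4%, and KO3 lesions had 35.8% and 44.1%. Within KO1 the remaining lesions had 22.9%, 29.0% and 28.3%, so that KO1 alone spanned most of the range of all lesions. The SD of lesions within mice was 12.6 percentage points and the SD of the 5 mouse means was 16.6.

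**Figure D1:**
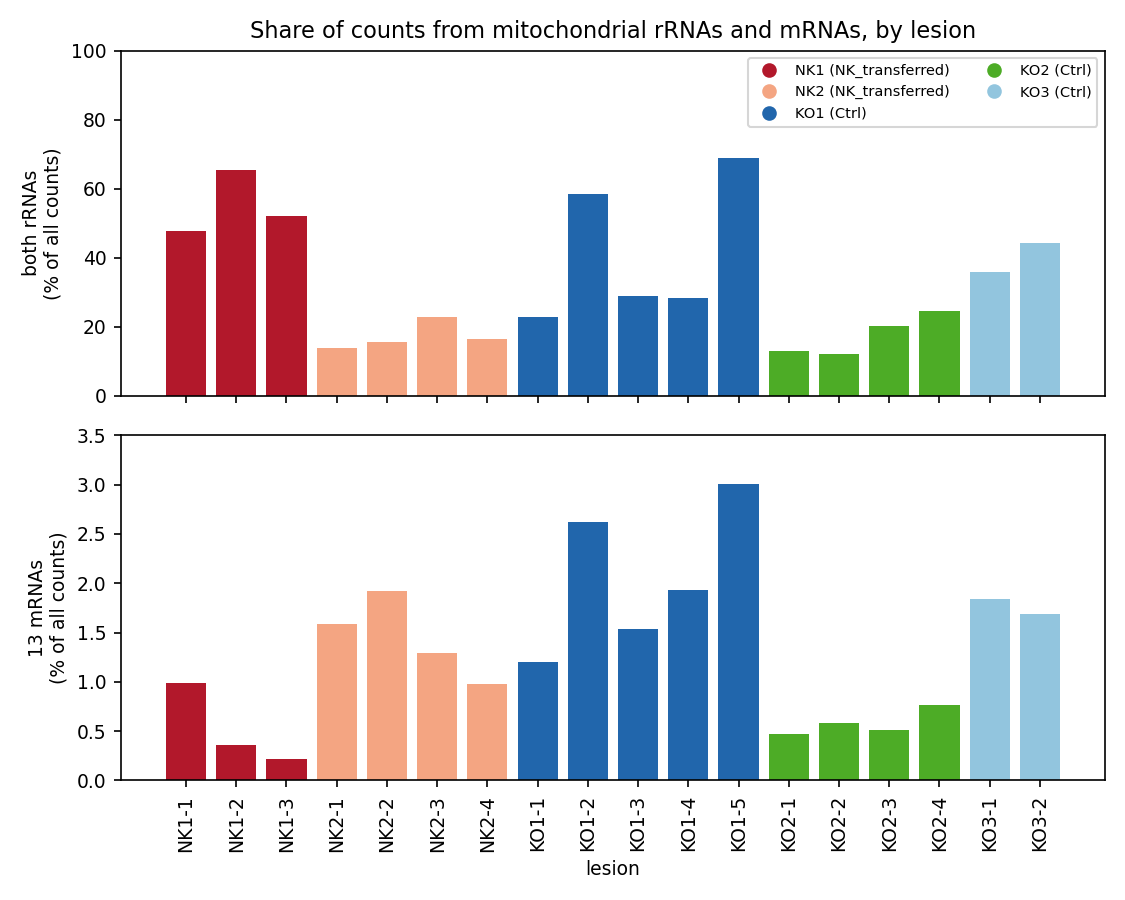
Share of all counts (percent) given by the 2 mitochondrial rRNAs (upper panel) and the 13 mRNAs (lower panel), with 1 bar per lesion coloured by mouse. KO1-5 was highest in both panels, whereas the NK1 lesions had high rRNA shares (47.7% to 65.4%) and low mRNA shares (0.213% to 0.985%).

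mt-Rnr2, the RNA of the large ribosomal subunit (chrM:1094-2675), accounted for this pattern. mt-Rnr1, the RNA of the small subunit (chrM:70-1024), lies ahead of it in the same precursor. mt-Rnr1 had 316.5, 433.1 and 1470 CPM of all counts (lowest, median and highest) in NK_transferred lesions and 205.3, 678.8 and 1478 CPM in Ctrl lesions. These ranges overlapped, with 944 to 1470 CPM in NK1 lesions, 316.5 to 433.1 in NK2 and 205.3 to 417.2 in KO2. Per count of mt-Rnr1 there were 336 (KO1-1) to 663 (KO3-2) counts of mt-Rnr2, and 203 to 400.4 after division by length. The ratio of the 2 rRNAs therefore varied by 1.97-fold over lesions in which the share of the rRNAs varied by 5.68-fold. Both rRNAs lie in the same precursor, yet their counts per length differed by 203-fold or more. Shares of counts are therefore not read here as amounts of RNA. Per length, mt-Rnr2 was above mt-Co1, the most abundant mRNA, in every lesion, by 12.2-fold (NK2-2) to 411-fold (NK1-3). mt-Rnr1 per length was below mt-Co1 in every lesion except NK1-3, at 0.0469 (NK2-2) to 0.783 (NK1-2) of its level, and stood at 1.93 times that level in NK1-3.

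The mRNAs did not follow the rRNAs in every mouse. Their share of all counts was 0.985%, 0.361% and 0.213% in NK1-1, NK1-2 and NK1-3, and 1.59%, 1.92%, 1.29% and 0.978% in NK2-1 to NK2-4. In the controls it was 1.196%, 2.62%, 1.53%, 1.93% and 3.01% in KO1-1 to KO1-5. KO2-1 to KO2-4 had 0.471%, 0.585%, 0.512% and 0.764%, and the KO3 lesions had 1.84% and 1.69%. As shares of all counts, KO2 was thus low in both classes of RNA, KO1-2 and KO1-5 were high in both, and NK1 combined high rRNA with low mRNA. A large rRNA share by itself lowers the mRNA share of all counts. With the rRNAs left out of the total, the mRNAs took 1.88%, 1.04% and 0.445% in NK1-1, NK1-2 and NK1-3. NK2 lesions then had 1.17% to 2.28%, KO2 lesions 0.541% to 1.01% and KO1 lesions 1.55% to 9.65%. On this total NK1-1 and NK1-2 were above every KO2 lesion, and NK1-3 was the lowest of all lesions. The total still holds Lars2, AY036118 and CT010467.1. These took 42.9% of the counts outside the mitochondrial genome in NK1-3, against 2.37% to 4.89% in KO2 lesions. The place of NK1-3 relative to KO2 is therefore not settled.

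The rRNA counts per mRNA count compared both classes of RNA within the mitochondrial genome, here without the counts given to nuclear copies of the mRNAs. The 3 highest ratios were those of NK1, at 48.4, 181 and 245 in NK1-1, NK1-2 and NK1-3. The 4 lesions of NK2 gave 8.64, 8.09, 17.8 and 16.7, so the mice that received NK cells held both the highest ratios and the lowest pair. Ctrl lesions lay between 14.7 (KO1-4) and 39.3 (KO2-3), with a median of 22.3. On the log2 scale the SD of lesions within mice was 0.620 and that of the mouse means was 1.30. The low mt-Rnr1 counts gave the same order at the extremes, with 0.690 counts per mRNA count in NK1-3 and 0.0187 in NK2-2. With near-identical nuclear copies added to the mRNAs and the lesions of a mouse summed, there were 62.2 rRNA counts per mRNA count in NK1, 9.68 in NK2, and 15.9, 22.4 and 17.9 in KO1, KO2 and KO3, against 81.95 in NK1 and 12.1 in NK2 without the copies.

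**Figure D2:**
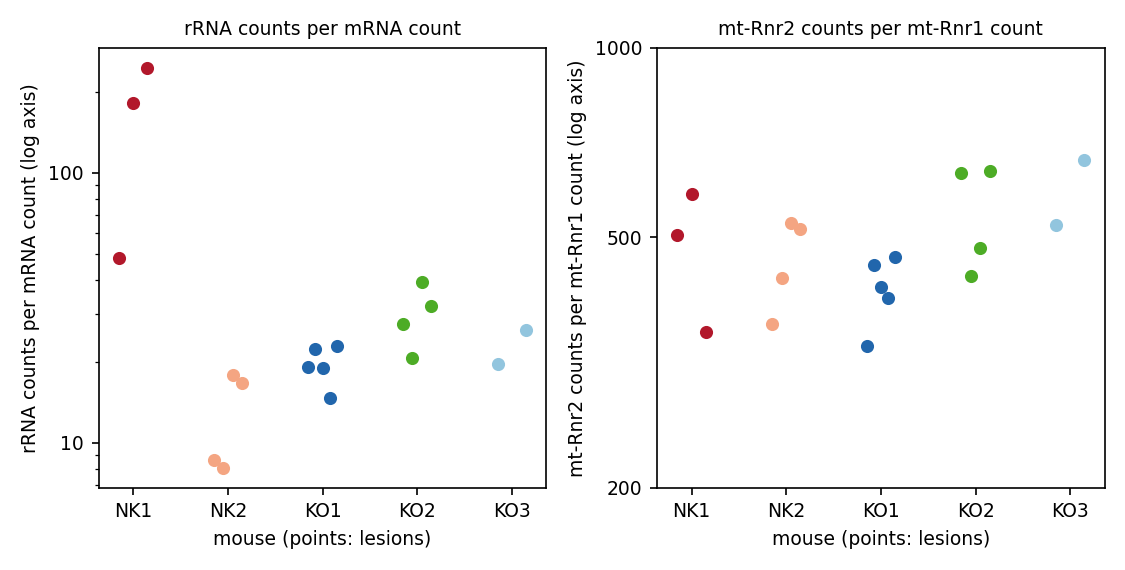
Counts of both rRNAs per count of the 13 mRNAs (left) and counts of mt-Rnr2 per count of mt-Rnr1 (right), both on log axes, with 1 point per lesion grouped by mouse. The NK1 points (48.4 to 245) lie above all other points on the left (8.09 to 39.3). On the right the points of all mice lie within 336 to 663, but those of KO1 (336 to 465) and KO3 (523 to 663) do not overlap.

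Other features of the libraries also differed between lesions, and only some of them went with the rRNA counts per mRNA count. NK1-3 and NK1-2, with the highest ratios (245 and 181), had the fewest counts in all (2964242 and 4845568). NK1-1, with the next highest ratio (48.4), had 8359080 counts. NK1-3 had the fewest genes with a count (13493 against up to 19222 in KO1-3). Fat cell markers, of which 4 of 10 had 0 counts in all Ctrl lesions, summed to 2520 CPM in NK1-1 and to at most 14.9 CPM in every other lesion. Heart muscle markers, of which all 12 had counts in both groups, summed to 448 CPM in NK1-1, 81.3 in NK1-3 and at most 55.1 elsewhere. NK1-3 also had the lowest macrophage level (488 CPM) and an airway epithelium level of 24500 CPM, against 1.04 to 26800 CPM in Ctrl lesions. NK1-2, with 181 rRNA counts per mRNA count, had 0 CPM of fat cell, 7.22 of heart muscle and 12.7 of airway epithelium markers. NK cell markers (all 10 with counts in both groups) summed to 4.96 CPM in NK1-3 and 13.3 in NK1-2. The other NK_transferred lesions had 20.7 to 112 CPM of these, and Ctrl lesions 1.04 to 14.8 CPM. Nuclear and cytosolic noncoding RNAs, a list of 11 measured genes, were highest in KO1-5 (28300 CPM), and stood at 19700 in KO3-2, 19500 in KO1-2 and 17800 in NK1-2. With Lars2, AY036118 and CT010467.1 left out of the total, NK1-3 had 854 CPM of macrophage, 42800 of airway, 142 of heart muscle and 24.8 of fat cell markers, and KO1-5 had 40200 CPM of the noncoding RNAs. The part of any of these in the mitochondrial shares was not tested.

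The counts of 7 mRNAs were divided between the mitochondrial gene and a near-identical nuclear copy, and this had to be settled before the mRNAs were compared. A block of 7 annotated pseudogenes on chromosome 1 (GRCm38, positions 24611535 to 24616197, minus strand) repeats mt-Co1 (its end), mt-Co2, mt-Atp6, mt-Co3, mt-Nd3, mt-Nd4l and part of mt-Nd4 at 99% identity or more. In 5 of the pairs the alignment had no mismatch at all: Gm28661 to mt-Co2 (681 bases), Gm10925 to mt-Atp6 (678), Gm28437 to mt-Co3 (783), Gm10222 to mt-Nd4l (294) and Gm28439 to mt-Nd4 (876 of 1378 bases). Gm10925 was listed with 247521 counts over all lesions and mt-Atp6 itself with 78805. The copy held 59.0% to 85.8% of the summed count of the pair and more than the gene itself in all 18 lesions.

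The division varied between genes and lesions. Gm28437 held 49.3% to 65.7% of the counts of its pair with mt-Co3, and Gm28661 held 23.8% to 64.7% of those with mt-Co2. Gm28439, which repeats less of its gene, held 3.66% to 18.2% of those with mt-Nd4, and Gm29216 at most 0.411% of those with mt-Co1. Gm28438 took 21.4% (NK1-2) to 100% (NK1-3) of the counts shared with mt-Nd3, and Gm10222 took 0% to 100% of those shared with mt-Nd4l. As a result mt-Nd4l was listed at 0 in 4 lesions (KO1-4, KO2-3, NK1-2 and NK1-3) and mt-Nd3 in 1 (NK1-3), whereas with the copy added each had counts in all 18. Levels of single mRNAs in the description of composition that follows are therefore those of the gene plus its copy, unless stated, while the fit over mice further on was made on each gene alone. Whether any of these counts came from the nuclear block was not tested.

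**Figure D3:**
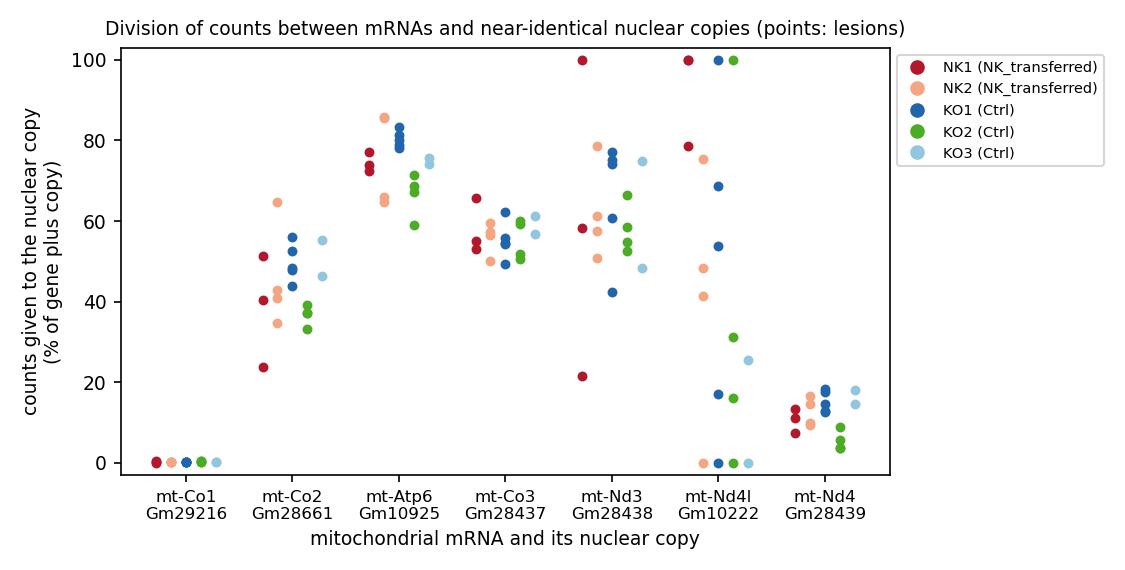
Percent of the summed counts of a mitochondrial mRNA and its near-identical nuclear copy that the authors' counts give to the copy, for 7 pairs, with 1 point per lesion coloured by mouse. Gm10925 held most of the counts shared with mt-Atp6 in every lesion (59.0% to 85.8%), and the points for mt-Nd4l cover the whole axis.

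Complex IV, cytochrome c oxidase, supplied most mitochondrial mRNA counts, which are not divided by length here. Its 3 mRNAs made up 62.5% (KO2-1) to 73.2% (KO3-2) of the mRNA counts. The 7 mRNAs of complex I (NADH dehydrogenase) made up 9.91% to 13.3%, mt-Cytb of complex III 4.22% to 5.84%, and the 2 mRNAs of complex V 11.3% to 19.3%. These ranges were narrow beside that of the mRNA share of all counts with the copies added, 0.286% to 3.71%.

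mt-Co1, the core subunit of complex IV, was the most counted mRNA in every lesion, at 38.5% (KO2-1) to 59.1% (KO1-5) of mRNA counts. Without the copies it held 50.6% to 72.8%. mt-Co2 and mt-Co3 encode the other 2 core subunits. mt-Co3 had 9.08% (KO1-3) to 20.8% (KO2-1) and mt-Co2 had 2.85% (NK2-2) to 5.37% (NK1-3). mt-Atp6, the membrane subunit through which the synthase conducts protons, had 11.0% (NK2-2) to 19.1% (NK1-3). mt-Atp8, whose end lies within mt-Atp6, had only 0.165% (NK1-3) to 0.530% (NK2-4).

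Among the complex I mRNAs, mt-Nd4 (3.99% to 5.55% of mRNA counts) and mt-Nd1 (2.92% to 5.45%) were the most counted and mt-Nd4l (0.0457% to 0.135%) the least. mt-Nd5 had 0.567% (KO2-1) to 1.58% (NK2-3), mt-Nd2 had 0.699% to 1.29%, and mt-Nd6, the only mRNA of the minus strand, had 0.141% to 0.239%. mt-Nd3 varied most among the 13, from 0.364% (NK2-2) to 1.76% (KO2-1), with a coefficient of variation of 60.2%. The lowest coefficient was that of mt-Nd4, at 8.97%. All 7 encode membrane subunits of the complex.

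Divided by length, and expressed as a percent of the sum over the 13 mRNAs, the order was mt-Co1 first (34.1% ± 5.34, SD over 18 lesions) and mt-Atp6 second (23.03% ± 2.998). mt-Co1 per length had 27.6%, 32.6% and 38.0% (lowest, median and highest) in NK_transferred lesions and 23.6%, 36.97% and 42.6% in Ctrl lesions. mt-Atp6 per length had 17.7%, 23.5% and 27.7% against 18.6%, 23.3% and 26.5%. In both genes the groups overlapped. mt-Co1 was above mt-Atp6 in 16 of 18 lesions and mt-Atp6 above mt-Co3 (18.3% ± 3.79) in 13, so the latter pair is not separated beyond its spread.

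The middle of the order was held by mt-Co2 (5.70% ± 0.944), mt-Cytb (4.58% ± 0.542), mt-Nd1 (4.30% ± 0.639) and mt-Nd4 (3.74% ± 0.456). Neighbours here changed places in 2 to 6 of 18 lesions. mt-Nd3 (2.21% ± 1.22) and mt-Atp8 (1.77% ± 0.527) were not ordered, since mt-Nd3 was the higher in 8 of 18 lesions. Then came mt-Nd2 (0.943% ± 0.157) and mt-Nd5 (0.585% ± 0.169), and mt-Nd2 was below mt-Atp8 in all 18.

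The lowest levels per length were those of mt-Nd6 and mt-Nd4l. mt-Nd6 had 0.292%, 0.403% and 0.481% in NK_transferred lesions and 0.275%, 0.374% and 0.499% in Ctrl lesions. mt-Nd4l had 0.241%, 0.314% and 0.483% against 0.156%, 0.298% and 0.356%. The groups overlapped in both, and mt-Nd6 was above mt-Nd4l in 15 of 18 lesions. Lengths are those of the annotated transcripts. With an assumed fragment length of 200 bases taken off each, the short mt-Atp8 moved from rank 9 to rank 1 and mt-Co1 to rank 2, so the place of the shortest genes is uncertain.

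mRNAs that lie on shared or neighbouring stretches of RNA were not counted in fixed proportion. mt-Nd4l and mt-Nd4, which overlap and are carried by a single mRNA in mammals, gave 0.00989 to 0.0259 counts of mt-Nd4l per count of mt-Nd4. mt-Atp8 and mt-Atp6, also carried by a single mRNA, gave 0.00864 (NK1-3) to 0.0368 (NK2-3), a 4.26-fold range, and a wider 8.09-fold range without the copy. The lowest value rests on 14 counts of mt-Atp8 in NK1-3, and the next lowest with the copy was 0.0143 (KO2-1). mt-Nd6 per count of mt-Nd5, its partner on the opposite strand, ranged from 0.126 (NK1-3, from 13 counts of mt-Nd6) to 0.289 (KO2-1). The mt-Nd6 and mt-Nd5 pair shares 14 bases, and the labels do not state whether counting used strand.

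The composition of the mRNAs differed between mice of the same treatment label. In KO2 lesions mt-Co3 made up 17.4% to 20.8% of mRNA counts against 9.08% to 15.7% in the other 14 lesions, and mt-Nd5 0.567% to 0.817% against 0.819% to 1.58%. Neither range overlapped, although that of mt-Nd5 nearly did. mt-Nd3 had 1.15% to 1.76% in KO2 against 0.364% to 1.41% elsewhere, where the high values were those of NK1-1 (1.41%) and NK1-3 (1.19%). mt-Co1 was low in KO2 (38.5% to 47.5%), overlapping with NK1 (43.3% to 47.9%). These contrasts were chosen after the values were seen and carry no test. Red blood cell markers (7 measured genes, all with counts in both groups) summed to 3420 to 16100 CPM in KO2 lesions, against 222 to 6780 CPM in the other Ctrl lesions and 353 to 3750 CPM in NK_transferred lesions. Neutrophil markers (all 10 with counts in both groups) summed to 1780 to 4950 CPM in KO2, against 319 to 7010 CPM and 160 to 1280 CPM. Their part in the composition was not tested.

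Lesions of a single mouse could also fall apart. NK2-1 and NK2-2 had 11.4% and 11.0% mt-Atp6 and 0.873% and 0.845% mt-Nd5, whereas NK2-3 and NK2-4 had 14.1% and 15.4% mt-Atp6 and 1.58% and 1.43% mt-Nd5. Their rRNA counts per mRNA count differed in the same way (8.64 and 8.09 against 17.8 and 16.7). The sample labels list NK2-3 and NK2-4 last, apart from NK2-1 and NK2-2, and give no batch.

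**Figure D4:**
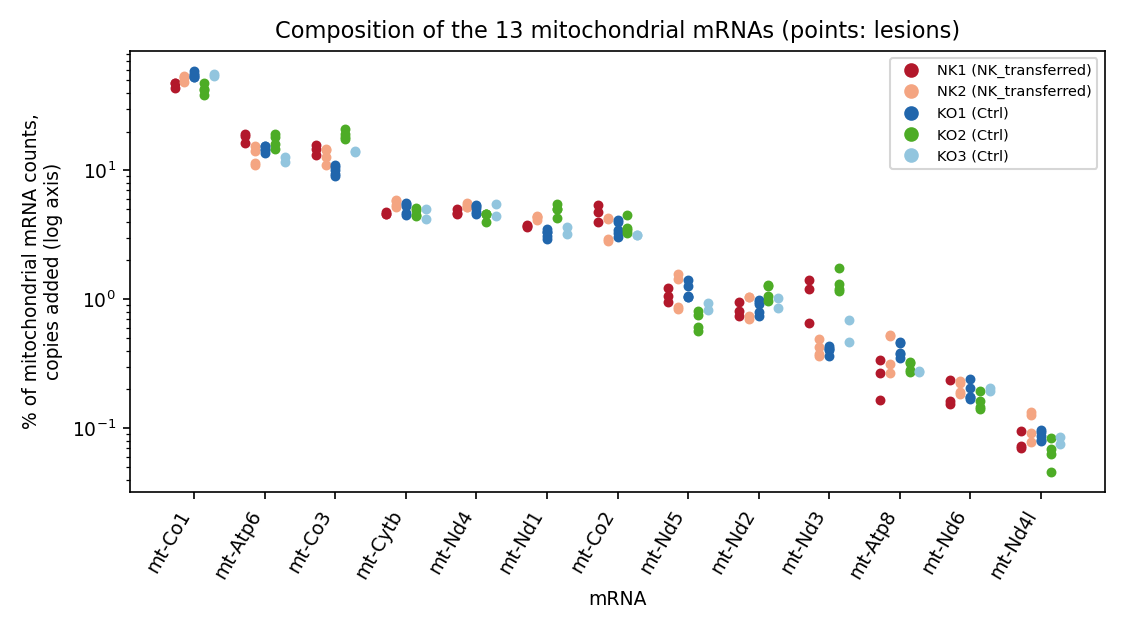
Percent of mitochondrial mRNA counts held by each of the 13 mRNAs, copies added, on a log axis, with 1 point per lesion coloured by mouse and genes ordered by their median. mt-Co1 is highest in every lesion (38.5% to 59.1%), and mt-Nd3 has the widest relative spread (0.364% to 1.76%).

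The tRNAs were almost absent from the counts. Of the 22, 13 had any count and together they had 1080 counts of 141461281. mt-Ts1, a serine tRNA, held 969 of these (89.7%) and was found in all 18 lesions, at 0.675 CPM (NK1-3) to 17.1 CPM (KO1-5). Its counts were 0.358 (KO1-2) to 1.92 (KO2-4) per 1000 counts of mt-Co1, whose end it overlaps on the other strand. mt-Tl1, a leucine tRNA, had 41 counts in 13 lesions, mt-Te, the glutamate tRNA, had 20 in 13 lesions, and mt-Ty, the tyrosine tRNA, had 11 in 6 lesions.

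The remaining tRNAs had 0 to 8 counts each over all lesions. mt-Tv, in spite of its place between the rRNAs, had 1 count, in KO1-4. All 8 tRNAs of the minus strand were detected, as were 5 of the 14 on the plus strand. The other 9 (mt-Tf, mt-Tw, mt-Td, mt-Tk, mt-Tg, mt-Tr, mt-Th, mt-Ts2 and mt-Tl2) had 0 counts, which allows a level of up to 0.0212 CPM over all lesions (3 counts of the total). The tRNAs are 59 to 75 bases long, and apart from mt-Ts1 they had 111 counts in all, too few to compare between lesions. Summed over the 22, NK_transferred lesions had 0.675, 4.97 and 17.02 CPM (lowest, median and highest) and Ctrl lesions 2.38, 7.67 and 18.4 CPM, with overlapping ranges.

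The comparison by treatment took the mouse as replicate, since lesions of a mouse share a host. With all lesions of a mouse summed, the mitochondrial genome took 54.5% (NK1) and 18.6% (NK2) of counts in mice with NK cells and 41.1%, 18.1% and 41.4% in KO1, KO2 and KO3. The NK_transferred mean was 36.5% ± 25.4 (SD, n = 2) and the Ctrl mean 33.5% ± 13.4 (n = 3), a difference of 2.995 percentage points (exact permutation test, two-sided, p = 0.80). With 2 mice against 3 this test cannot give a p below 0.2. The sign turned without NK1 (-15.0) and without KO2 (-4.72), and the difference was 0.0853 without lesions NK1-2 and NK1-3.

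The 2 rRNAs gave 35.5% ± 25.9 (n = 2 mice) against 32.1% ± 12.6 (n = 3), a difference of 3.40 percentage points (exact permutation p = 1.0). Without NK1 the difference was -14.9, without KO2 -3.89, and without NK1-2 and NK1-3 it was 0.323. The 13 mRNAs gave 1.04% ± 0.541 against 1.44% ± 0.744, a difference of -0.401 percentage points (exact permutation p = 0.60). It remained below 0 without any mouse in turn, from -0.827 without KO2 to -0.0186 without NK1. The log2 ratio of rRNA to mRNA counts was 4.97 ± 1.96 against 4.56 ± 0.296, a difference of 0.41 (exact permutation p = 0.80), which became -0.97 without NK1 and 0.03 without NK1-2 and NK1-3. Adjusted over these 4 tests all p-values were 1.0. Each of these differences was smaller than the SD between the 2 NK_transferred mice.

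Single genes were tested over mice with edgeR's quasi-likelihood F test on all 16917 genes that passed the filter on low counts. Of the 37 mitochondrial genes 17 passed it: both rRNAs, all 13 mRNAs, mt-Ts1 and mt-Tl1. None of the 17 was called at an adjusted p under 0.05 (background 0% of all genes tested, with 426 genes at an unadjusted p under 0.05 but no mitochondrial one, the smallest being 0.218), and DESeq2 called none either. None had both NK_transferred mice above every Ctrl mouse (background 7.94% of all genes) or both below (6.86%). The estimated coefficient of variation between mice was 64.9%.

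Both rRNAs had log2 fold changes above 0, of 0.59 ± 0.79 (SE) for mt-Rnr1 and 0.54 ± 0.94 for mt-Rnr2. Scaled for library composition (trimmed mean of M-values, TMM), mt-Rnr1 had 1679 CPM in NK1 and 268 in NK2 against 908, 251 and 782 in KO1, KO2 and KO3. The mice with NK cells thus held the highest value and 1 of the 2 lowest. Without NK1 the log2 fold changes became -1.26 for mt-Rnr1 and -1.38 for mt-Rnr2.

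Of the 13 mRNAs 12 had a log2 fold change below 0, with a median of -0.37 against -0.03 for all genes tested. These values are for each gene alone. The smallest were -1.22 ± 0.91 for mt-Nd4l, -0.62 ± 0.72 for mt-Co1 and -0.54 ± 0.55 for mt-Nd2. The largest were 0.17 ± 0.56 for mt-Nd3, -0.28 ± 0.51 for mt-Co2 and -0.32 ± 0.51 for mt-Nd1, and mt-Nd6 had -0.37 ± 0.66. With mouse number as a replicate block, the median of the 13 was 0.14. That fit leaves KO3 alone in its block, so it compares only NK1 with KO1 and NK2 with KO2. In the fit without a block, every gene named above had an adjusted p of 0.9998 (edgeR, Benjamini-Hochberg over all genes). With the nuclear copies added, mt-Nd4l changed to -0.39 ± 0.70 and mt-Nd3 to 0.03 ± 0.54, and the smallest were mt-Co1 (-0.62 ± 0.72), mt-Nd2 (-0.54 ± 0.55) and mt-Atp8 (-0.51 ± 0.65). The position of mt-Nd4l at the low end thus rested on counts divided with its copy.

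**Figure D5:**
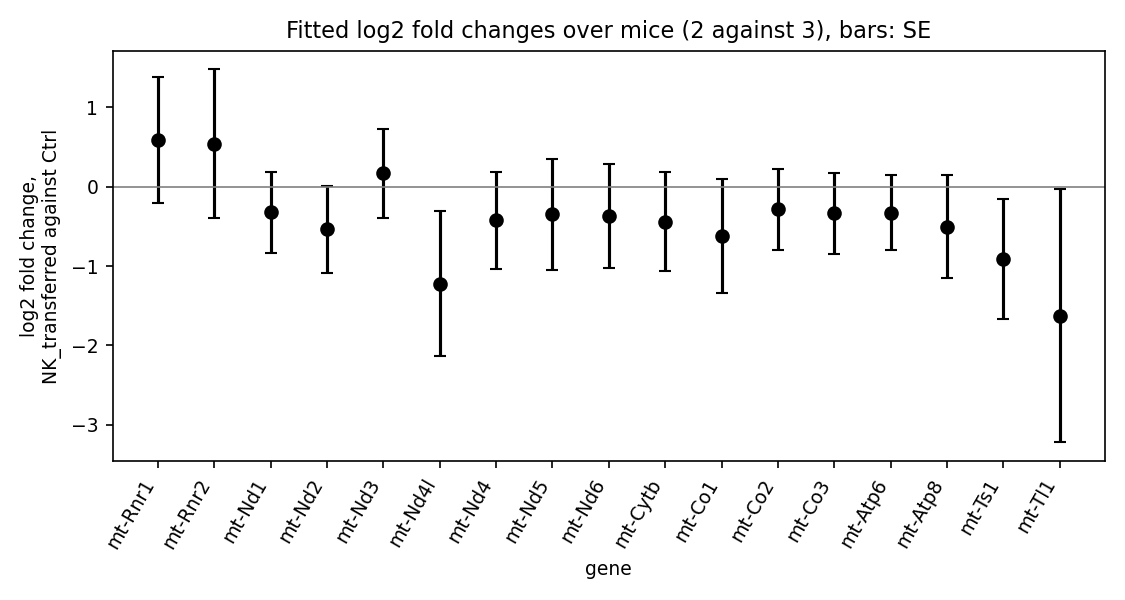
Log2 fold changes (NK_transferred against Ctrl, 2 mice against 3) of the 17 mitochondrial genes tested, each without its nuclear copy, with SE as bars and a line at 0. Both rRNAs lie above 0 (0.59 and 0.54) and 12 of 13 mRNAs below it, and none passed the adjusted threshold.

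Nuclear genes that serve mitochondrial gene expression were examined as lists. Of 16 factors of mitochondrial transcription and replication, all tested, 0 were called and 7 had a log2 fold change above 0 (median -0.08, against -0.03 for all genes). Among the most counted were Twnk, the helicase of mitochondrial DNA replication (-0.68 ± 0.55), Polg, the catalytic subunit of the mitochondrial DNA polymerase (-0.10 ± 0.38), and Tfb2m, a transcription factor that acts with the mitochondrial RNA polymerase (-0.20 ± 0.48). The list summed to 381 to 491 CPM of counts outside the mitochondrial genome in NK_transferred lesions and 308 to 625 CPM in Ctrl lesions. With Lars2, AY036118 and CT010467.1 left out of the total, the list ran from 390 (KO1-2) to 731 CPM (KO3-2). KO1-5 then had 712, NK1-3 682 and NK1-2 564 CPM. On either total the list varied far less between lesions than the mitochondrial shares did.

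Of 31 tested factors of mitochondrial RNA processing and turnover 0 were called, and 11 had a log2 fold change above 0 (median -0.08). Ptcd2, a pentatricopeptide protein linked to processing of mt-Cytb RNA, had -1.23 ± 0.53, Fastk had -0.29 ± 0.35, and Mtpap, the mitochondrial poly(A) polymerase, had 0.07 ± 0.51. Ptcd2 had 23.1 CPM in NK1 and 51.7 in NK2 against 62.5, 67.8 and 133.8 in KO1, KO2 and KO3. Its values in mice with NK cells were both below every Ctrl mouse, as held for 4 of the 31 in this list (background 6.86%), while 2 of the 31 had both above (background 7.94%). The adjusted p of Ptcd2 was 0.9998 (edgeR).

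Mitochondrial ribosomal proteins, which bind the rRNAs described above, had 0 of 78 genes called and 34 above 0 (median -0.04). Mrpl3 had 0.12 ± 0.55, Mrps30 0.20 ± 0.45 and Mrps23 -0.70 ± 0.47. Their summed level ran from 2310 CPM (NK1-3) to 5860 CPM (KO2-4). With Lars2, AY036118 and CT010467.1 left out of the total it ran from 4040 (NK1-3) to 6160 CPM (KO2-4). Cytosolic ribosomal proteins had 0 of 80 called and 44 above 0 (median 0.07), with Rpl27 at -0.32 ± 0.55, Rpl36 at -0.45 ± 0.48 and Rplp1 at -0.31 ± 0.47. Their summed level was likewise lowest in NK1-3, at 40400 CPM, and at 70800 CPM with those features left out.

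The nuclear subunits of the respiratory chain, which assemble with the mitochondrial ones, had 0 of 80 called and 52 above 0 (median 0.13). Cox4i1 of complex IV had 0.17 ± 0.36, Uqcrh of complex III -0.10 ± 0.42, and Atp5a1 of complex V 0.22 ± 0.44. Their summed level was 4320 to 10400 CPM in NK_transferred lesions and 4350 to 10600 CPM in Ctrl lesions. The lowest levels were those of NK1-3 (4320) and KO1-5 (4350), which became 7560 and 6180 CPM with Lars2, AY036118 and CT010467.1 left out of the total, so that KO1-5 was then lowest.

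Of 9 regulators of mitochondrial biogenesis 0 were called and 6 had a log2 fold change above 0 (median 0.33). Myc had 0.33 ± 0.49, Pprc1, a coactivator of the PGC-1 family, -0.46 ± 0.42, and Yy1 0.62 ± 0.44. The 11 noncoding RNAs had 0 called and 2 above 0 (median -0.34), with Gm42418 at -0.32 ± 0.50, Gm26917 at -0.11 ± 0.58 and Rn7s2 at -0.34 ± 0.79.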

How the data were processed

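RNA of 18 lesions was measured, and the lesions were grouped by the treatment label (7 NK_transferred, 11 Ctrl) and by the mouse named in their titles. The submitters' processing notes name the mm10 build and the tools RSEM 1.2.28, STAR, bcl2fastq 2.17 and DESeq2. The expected counts deposited by the authors carry no scaling, as judged from their totals, and were rounded before tests. A deposited table of log2 values, normalized by the authors in a way the labels do not state, served only as an alternative. The members and the gene lists were chosen with earlier results of these data known. All 37 members were matched by symbol, and 49326 of 49585 identifiers had one.

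All lesions of a mouse were summed and tested with edgeR 4.0.16 in R 4.3.3 (TMM; filterByExpr with a minimum count of 10 and total of 15; quasi-likelihood F test; Benjamini-Hochberg, 0.05). The SE of a log2 fold change was derived from the F statistic as the fold change over its root. Shares were tested over mice by exact permutation (scipy 1.17.1). Near-identical copies were found with BLAST+ 2.17.0 among GENCODE M21 transcripts (at least 99% identity over at least 200 bases). The fit was tested on simulated data. All pairs of lesions within mice differed beyond sampling noise (lowest chi-square per degree of freedom 22.0). Fold changes are given for both rRNAs, mt-Nd6 and the 3 mRNAs at either end. For the lists the 3 most counted members are given. Depth was 2964242 to 11798897 counts per lesion. Nothing says how the mice were caged, and the p-values measure the spread between these 5 mice. Alternatives were other scalings and filters, DESeq2 1.42.0, limma 3.58.1, the mouse number as a block, added copies, and leaving out mice or lesions. Markers of the cell types a lesion could hold were read as summed CPM. Results that need protein sequences were left out.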

Additional observations from a re-analysis of the deposited data

Results flagged for a closer look

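Values that stood apart from the others of their group were sought among 76 combinations of a measure and a group of 4 to 7 lesions, by the size of the gap to the nearest lesion. Chance alone marks about 1 in 20 such groups, and 3 of the 76 were marked. The summed tRNAs were far higher in NK2-2 (17.02 CPM) than in the other NK_transferred lesions (0.675 to 7.21 CPM), and in KO1-5 (18.4 CPM) than in the other KO1 lesions (3.98 to 7.91 CPM). mt-Nd4 with its copy made up 3.99% of mRNA counts in KO2-1, below the other KO2 lesions (4.62% in each).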

How the results depend on the processing

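Of 580 combinations of a result and another setting, 552 kept the direction and the side of the threshold of the value reported (for a median over genes, stayed within the spread between mice), and no mitochondrial gene was called under any setting run. Over all genes, 0 were called, but 21 by DESeq2 on the same genes (added after seeing the data), 39 by DESeq2 on all 26158 genes with a count, 224 by edgeR with no filter on low counts and 4 without mouse NK2 (0 to 4 without each mouse or lesion in turn). Leaving out mice or lesions moved the difference in the share of the mitochondrial genome from -15.0 (without NK1) to 20.9 percentage points (without NK2), with -4.72 without KO2. For the rRNAs the range was -14.9 (without NK1) to 21.7 (without NK2), with -3.89 without KO2. For the mRNAs it was -0.827 to -0.0186, and for the log2 ratio -0.97 (without NK1) to 1.79 (without NK2). Over the same exclusions the log2 fold change ran from -1.26 to 1.37 for mt-Rnr1, -1.38 to 1.34 for mt-Rnr2 and -1.02 to 0.81 for mt-Nd3, the first value without NK1 and the second without NK2. mt-Nd3 was also below 0 without TMM (-0.16), without NK1-1 (-0.65), with lesions as samples and the mouse as a random block (-0.59) and in the authors' normalized table (-0.79). In the fit on lesions mt-Nd6 was 0.18 and mt-Nd4l 0.24. The causes were not tested.

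KO and NK mice share the numbers 1 and 2, which name separate animals. Deviations from the group means correlated at 0.05 for NK1 with KO1 and 0.29 for NK2 with KO2 over genes, and at 0.21 for NK1 with KO3. As the NK_transferred group has 2 mice, the deviations of NK1 and NK2 mirror each other, so these values cannot test a pairing by number. With the mouse number as a replicate block 7 genes were called, 0 of them mitochondrial, and the log2 fold changes were 0.37 for mt-Nd6, 0.14 for mt-Co1, 0.10 for mt-Nd1 and 0.082 for mt-Co2. KO3 is alone in its block there and adds nothing to the treatment estimate, which compares only NK1 with KO1 and NK2 with KO2. Depth limits the tRNAs, mt-Nd4l and NK1-3 most.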

Other observations

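Some other features, chosen after their values were seen, ranked next to mt-Rnr2 by total counts. Lars2, which encodes the mitochondrial leucyl-tRNA synthetase, ranked 2 and held 0.477% (KO2-1) to 15.2% (NK1-2) of the counts outside the mitochondrial genome. AY036118 ranked 3, with 0.568% (NK2-4) to 17.2% (NK1-3), and CT010467.1, which is annotated as a ribosomal RNA, ranked 4, with 0.533% (NK2-4) to 11.4% (NK1-3). All 3 were highest in the same 4 lesions (NK1-2, NK1-3, KO1-2 and KO1-5), which are among those with the highest rRNA shares, and Lars2 held 10.7% to 15.2% there against 0.477% to 7.06% elsewhere. Whether rRNA reads were counted under these features was not tested. There were 7.65 (NK1-3) to 35.0 (NK1-1) counts of mt-Rnr2 per count of Lars2.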
